A study of Mus musculus with 18 samples.

Results

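The genes Meis1, Pbx3, Hoxa5, Hoxa7, Hoxa9, Hoxa10, Hoxb4 and Hoxb3 were followed through early stress erythropoiesis in the mouse spleen and compared with steady-state bone marrow (BM). They are 8 of the 24072 genes in the spleen count table and 8 of the 10702 genes in the count table of both BFU-E populations, and were found there by symbol. By annotated gene name, 16 of 35142 accessible regions in BM BFU-E and 31 of 61661 in stress spleen BFU-E were assigned to them. All cells came from the B6SJL strain background. Steady-state burst-forming erythroid progenitors (BFU-E, Sca-neg) were sorted from BM. From the spleen came stress multipotent progenitors (MPP, Sca-pos), stress BFU-E (Sca-neg) and stress colony-forming erythroid progenitors (CFU-E, CD9-neg). The mice that gave spleens had been lethally irradiated, had received unfractionated bone marrow by transplantation, and were used on day 8, whereas the BM mice were in steady state. RNA was sequenced from 3 libraries of each population, and open chromatin was mapped by ATAC-seq (which marks DNA that a transposase can reach) in 3 libraries of each BFU-E population. All cells were depleted of lineage-positive cells before flow sorting, and biotinylated antibodies were detected with a different fluorophore in the BM sorts. Tissue, irradiation, transplantation and that staining therefore cannot be told apart between the BFU-E populations. The labels do not say whether libraries came from separate animals, so p-values measure the spread between these libraries, which may be technical.

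HOX proteins are homeodomain transcription factors encoded in gene clusters, and in blood the A and B clusters are the ones mainly used. On their own they bind DNA with little selectivity. MEIS and PBX proteins belong to the TALE class of homeodomain factors: they bind next to HOX proteins, sharpen their choice of sites, and MEIS proteins also hold PBX partners in the nucleus. In the blood system these factors are known for sustaining stem and progenitor cells, and the pairing of HOXA9 with MEIS1 is best known from acute leukaemia. Meis1 is also needed for making megakaryocytes.

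The DNA under the accessible regions is shown first, since it is where the BFU-E populations were compared at these genes. Each peak sequence is the 200 bases around the centre of a peak in the stress spleen list, read 5′ to 3′ on the + strand of GRCm38 (mm10), whatever strand the gene is on. Capitals mark a match to 1 of 4 motifs searched on both strands: TGATTNAT for HOX with PBX, TGACAG for MEIS, AGATAA for GATA factors and TGTGGT for RUNX factors. None of the 4 lies within another, and a match is a description of the letters, not a bound site. The following 3 windows belong to Meis1: an intron 8 region and an upstream region present in both lists, and an intron 8 region that is present in the stress spleen list alone.
Meis1 intron, both lists, chr11:18924936-18925135: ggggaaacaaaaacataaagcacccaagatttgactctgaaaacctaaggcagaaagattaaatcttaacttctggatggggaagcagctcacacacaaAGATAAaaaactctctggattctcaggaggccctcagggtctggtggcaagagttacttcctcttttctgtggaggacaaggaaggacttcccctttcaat
Meis1 upstream, both lists, chr11:19020479-19020678: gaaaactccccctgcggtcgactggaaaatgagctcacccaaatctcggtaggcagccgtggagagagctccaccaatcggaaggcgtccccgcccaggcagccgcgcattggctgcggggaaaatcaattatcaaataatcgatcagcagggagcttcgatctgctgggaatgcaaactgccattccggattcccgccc
Meis1 intron, stress spleen list alone, chr11:18938013-18938212: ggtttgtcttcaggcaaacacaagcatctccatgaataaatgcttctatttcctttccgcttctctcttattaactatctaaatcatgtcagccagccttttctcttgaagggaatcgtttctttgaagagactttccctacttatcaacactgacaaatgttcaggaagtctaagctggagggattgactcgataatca

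Pbx3 gives the same contrast, with an intron 2 region near the gene's start found in both lists and an intron 2 region 122 kb downstream found in the stress spleen list alone. In the latter, the capitals are the MEIS letters read on the − strand.
Pbx3 intron, both lists, chr2:34360144-34360343: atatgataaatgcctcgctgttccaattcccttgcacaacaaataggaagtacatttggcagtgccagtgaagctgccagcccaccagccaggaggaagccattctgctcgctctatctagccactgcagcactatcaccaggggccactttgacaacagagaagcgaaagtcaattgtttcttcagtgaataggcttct
Pbx3 intron, stress spleen list alone, chr2:34249809-34250008: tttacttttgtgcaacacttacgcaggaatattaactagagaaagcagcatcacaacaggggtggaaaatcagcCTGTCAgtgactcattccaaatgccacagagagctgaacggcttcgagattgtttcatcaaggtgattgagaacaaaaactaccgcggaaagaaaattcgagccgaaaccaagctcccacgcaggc

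For the HOX A cluster, the exon 1 windows of Hoxa10 (both lists) and Hoxa5 (stress spleen list alone) are shown. The last sequence is the 250 bases before the RefSeq start of Hoxa9 on its own − strand, where neither list has a peak although its transcript was detected in every library.
Hoxa10 exon 1, both lists, chr6:52234356-52234555: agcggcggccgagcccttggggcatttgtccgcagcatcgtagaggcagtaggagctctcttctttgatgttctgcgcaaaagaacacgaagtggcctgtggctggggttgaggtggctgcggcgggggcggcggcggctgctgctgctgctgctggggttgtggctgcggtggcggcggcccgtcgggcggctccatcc
Hoxa5 exon 1, stress spleen list alone, chr6:52204081-52204280: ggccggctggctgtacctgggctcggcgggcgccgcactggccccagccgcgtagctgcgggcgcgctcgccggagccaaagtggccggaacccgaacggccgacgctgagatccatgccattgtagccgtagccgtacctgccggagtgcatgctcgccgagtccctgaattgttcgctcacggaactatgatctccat
Hoxa9 promoter, − strand, chr6:52227371-52227620: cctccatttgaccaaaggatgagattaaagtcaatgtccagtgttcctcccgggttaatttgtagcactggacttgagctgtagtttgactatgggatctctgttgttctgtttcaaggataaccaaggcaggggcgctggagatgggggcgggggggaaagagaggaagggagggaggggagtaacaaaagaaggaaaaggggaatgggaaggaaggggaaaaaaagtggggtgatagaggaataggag

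The libraries held 5937778 to 13197159 counts in the spleen table and 6758871 to 12926718 in the BFU-E table. The variation between libraries of a group (edgeR's common biological coefficient of variation) was 0.25 in the spleen fit and 0.704 in the BFU-E fit. The sorted spleen populations carried markers of their labels. The 10 erythroid markers summed to 168 to 228 CPM in MPP, 298 to 342 in stress BFU-E and 1932 to 1982 in CFU-E. The 9 stem and MPP markers summed to 485 to 596, 167 to 200 and 46.7 to 81.8. CPM is a gene's count relative to its library's total, adjusted with TMM for library composition. The libraries also held other lineages' transcripts. The 6 megakaryocyte markers summed to 981 to 1126 CPM in MPP, 1733 to 2012 in stress BFU-E and 87.8 to 107 in CFU-E. The 6 granulocyte markers summed to 49.9 to 463, 636 to 750 and 20.1 to 75.3, and 7 of 9 lymphoid markers were at 0 in all stress BFU-E libraries. Stem, megakaryocyte and granulocyte markers thus moved between the same groups as the genes described here, and their part in the results was not tested. In bulk libraries, fewer cells of a type and less RNA per cell cannot be told apart.

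Meis1 was by far the most abundant of these transcripts per length in every spleen population. RPKM (a read count corrected for both the gene's length and the library's size) was 56.0 ± 5.50 in MPP, 51.3 ± 3.10 in stress BFU-E and 12.4 ± 1.57 in CFU-E (SD, n = 3 for these and all later means). In MPP it was followed by Hoxa7 at 7.99 ± 1.59 RPKM and Hoxa9 at 7.78 ± 1.12, whose libraries overlapped. Pbx3 (5.11 ± 1.46), Hoxb4 (3.20 ± 1.25) and Hoxa10 (2.73 ± 0.373) came next, each overlapping its neighbour in that order, and Hoxb3 (0.997 ± 0.540) and Hoxa5 (0.990 ± 0.783) were lowest and overlapped each other. In CFU-E the levels below Meis1 lay closer together: Hoxa9 was at 3.03 ± 0.762 RPKM, Pbx3 at 2.42 ± 0.825 and Hoxa7 at 2.10 ± 1.13, all overlapping. Hoxb4 (1.10 ± 0.631), Hoxa5 (0.743 ± 0.569), Hoxa10 (0.741 ± 0.529) and Hoxb3 (0.287 ± 0.124) followed.

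**Figure D1:**
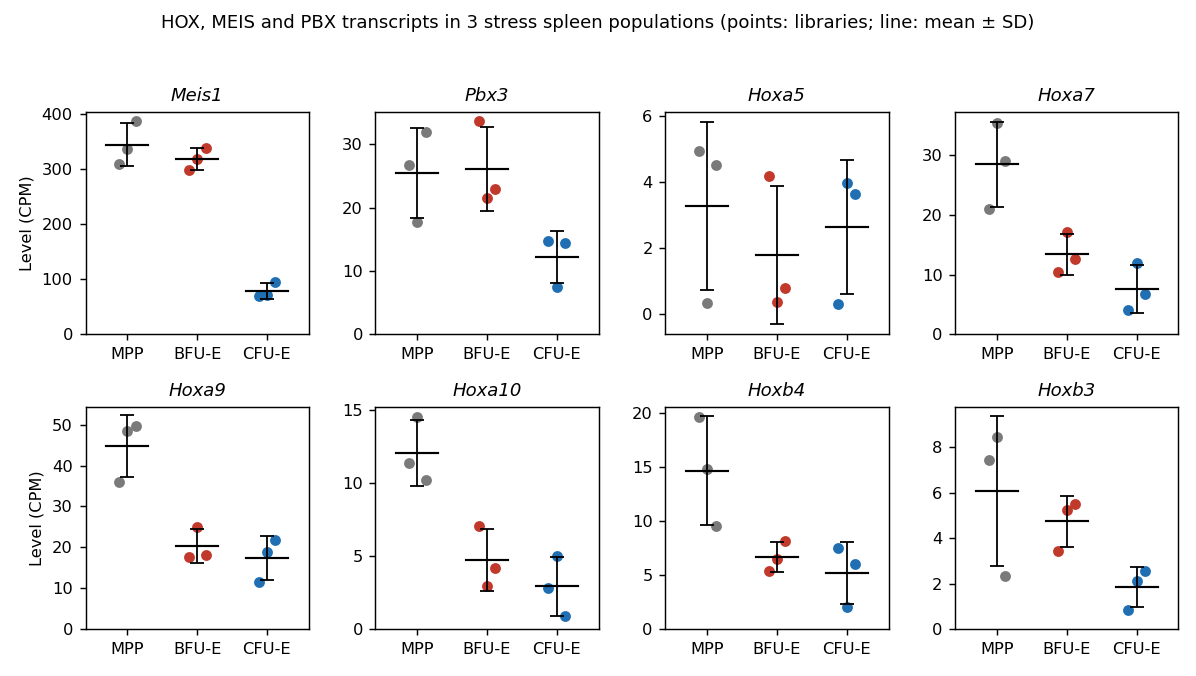
Level of each gene in CPM (vertical axes, a scale per gene) in the 3 stress spleen populations; points are libraries, the horizontal line is the mean and the bar its SD (n = 3). Meis1 libraries of MPP and BFU-E lie between 298 and 387 CPM and those of CFU-E between 69.2 and 96.1, while Hoxa7, Hoxa9, Hoxa10 and Hoxb4 have every MPP library above every BFU-E library.

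From MPP to CFU-E, 6 of the 8 genes had enough reads to be tested (a mean of at least 50 counts over the 9 spleen libraries), and all 6 were lower in CFU-E. With edgeR's quasi-likelihood test and Benjamini-Hochberg adjustment at 0.05, used for all spleen comparisons, 6 of 6 fell, where 28.8% of all 10166 genes were called in either direction and 16% were called lower. The CFU-E and MPP libraries of these 6 did not overlap, against 21.2% of all genes not overlapping in that direction. The median log2 fold change of the 6 was -1.70, beside a median near 0 (-0.00) over all genes.

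The TALE partners Meis1 and Pbx3 did not pass the test from MPP to BFU-E and fell from BFU-E to CFU-E. Meis1, the cofactor of HOXA9, measured 310, 336 and 387 CPM in MPP libraries 1 to 3, 298, 318 and 338 in BFU-E, and 69.2, 71.4 and 96.1 in CFU-E. MPP and BFU-E libraries overlapped, and every CFU-E library lay far below both. The log2 fold change was -0.11 (SE 0.13, adjusted p = 0.738) from MPP to BFU-E and -2.01 (SE 0.13, adjusted p = 2.77e-10) from BFU-E to CFU-E, a 4.04-fold fall. Pbx3, a PBX partner of HOX proteins, measured 26.8, 17.8 and 31.9 CPM in MPP, 33.7, 21.5 and 23.0 in BFU-E, and 14.8, 7.54 and 14.4 in CFU-E. Its MPP and BFU-E libraries overlapped, and all CFU-E libraries were lower, with the second about as far below the other CFU-E libraries as they were below BFU-E. Its log2 fold change was 0.03 (SE 0.33, adjusted p = 0.979) at the first step and -1.09 (SE 0.33, adjusted p = 0.0228) at the second. The Pbx3 call was lost without BFU-E library 1 (adjusted p = 0.137) or CFU-E library 2 (adjusted p = 0.105). Against MPP, CFU-E values gave -2.13 for Meis1 (SE 0.13, adjusted p = 1.1e-10) and -1.06 for Pbx3 (SE 0.33, adjusted p = 0.0214), and the latter was lost without MPP library 3 (adjusted p = 0.102) or CFU-E library 2 (adjusted p = 0.0949).

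The 3 tested HOX A genes had the larger log2 value at the first step. Hoxa9, the HOX protein that pairs with MEIS1, measured 36.0, 48.5 and 49.8 CPM in MPP, 17.5, 25.0 and 18.1 in BFU-E, and 11.4, 18.9 and 21.9 in CFU-E. All MPP libraries lay above all others, while BFU-E and CFU-E overlapped. Hoxa9 fell from MPP to BFU-E (log2 fold change -1.15, SE 0.28, adjusted p = 0.0223) and its value from BFU-E to CFU-E was -0.22 (SE 0.28, adjusted p = 0.656). It was the 1 gene of the 6 called at the first step, where 4.13% of all genes were called and 2.11% were called lower. That call was lost without BFU-E library 1 (adjusted p = 0.110) or 3 (0.106), or without MPP library 2 (0.0603) or 3 (0.0980). Against MPP, the CFU-E level was lower by a log2 fold change of -1.37 (SE 0.28, adjusted p = 0.000982), a call kept without any 1 library.

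Hoxa7, a neighbour of Hoxa9 in the cluster, measured 21.0, 35.2 and 28.9 CPM in MPP, 10.4, 17.2 and 12.7 in BFU-E, and 4.03, 11.9 and 6.81 in CFU-E. MPP libraries lay above BFU-E libraries without overlap, and the second CFU-E library reached into the BFU-E range. Its log2 fold change was -1.08 (SE 0.40, adjusted p = 0.154) at the first step and -0.82 (SE 0.40, adjusted p = 0.166) at the second, which became -1.31 (adjusted p = 0.0357) without CFU-E library 2. Over both steps it fell by 1.90 on the log2 scale (SE 0.41, adjusted p = 0.00130). Hoxa10, a posterior gene of the A cluster active in early progenitors, measured 11.3, 14.5 and 10.2 CPM in MPP, 7.03, 2.95 and 4.17 in BFU-E, and 2.79, 5.0 and 0.915 in CFU-E. MPP stood above the other populations, which overlapped. Its log2 fold changes were -1.34 (SE 0.62, adjusted p = 0.291) at the first step, -0.70 (SE 0.63, adjusted p = 0.495) at the second and -2.04 (SE 0.64, adjusted p = 0.0206) over both. The last call was lost without MPP library 2 (adjusted p = 0.0543), CFU-E library 1 (0.0617) or CFU-E library 3 (0.0818). Hoxa5 was under the count filter: its counts were 64, 2 and 35 in MPP, 56, 4 and 10 in BFU-E, and 4, 47 and 36 in CFU-E, so each population held a library near 0, and an edgeR fit without the filter gave it no call at any step.

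Of the B cluster, Hoxb4 was tested and Hoxb3 was under the filter. Hoxb4, known for expanding blood stem cells when it is overexpressed, measured 19.6, 14.9 and 9.54 CPM in MPP, 5.39, 6.46 and 8.18 in BFU-E, and 7.52, 2.03 and 6.00 in CFU-E. All MPP libraries were higher than all BFU-E libraries, and BFU-E and CFU-E overlapped. The log2 fold changes were -1.14 (SE 0.55, adjusted p = 0.318), -0.36 (SE 0.55, adjusted p = 0.709) and, over both steps, -1.50 (SE 0.55, adjusted p = 0.0476). The last call was marginal: it was lost without MPP library 1 (adjusted p = 0.178), MPP library 2 (0.0779), CFU-E library 2 (0.147) or CFU-E library 3 (0.0738), and with no filter on low counts (0.0521) or with only the 2 groups in the fit (0.0607). Hoxb3 had counts of 96, 49 and 18 in MPP, 46, 57 and 70 in BFU-E, and 11, 25 and 25 in CFU-E, under the filter; its CFU-E level was 1.84 ± 0.88 CPM against 4.74 ± 1.13 in BFU-E and 6.08 ± 3.29 in MPP. In an edgeR fit without the filter its CFU-E value against MPP was -1.70 on the log2 scale (adjusted p = 0.194). The antisense gene Hoxb3os covers 52.9% of the exon bases of Hoxb3, taken over all its GENCODE exons rather than those of the counted transcript. The deposited tables do not state the counting strand, so reads of the pair cannot be told apart. By the same measure, Hoxaas3 covers 20.4% of Hoxa7. For Meis1, an opposite-strand gene covers 8.51% and the same-strand gene Gm37818 covers 9.77%.

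Set side by side, the steps split these genes into those with most of the log2 drop after BFU-E and those with most of it before. At the first step 4 of 6 (Hoxa7, Hoxa9, Hoxa10 and Hoxb4) were lower with no overlap between libraries, against 10.8% of all genes, with a median log2 fold change of -1.11. At the second step 2 of 6 fell (Meis1 and Pbx3), where 21.1% of all genes were called, 11.9% of all genes were called lower and 19.3% of all genes were lower without overlap, with a median of -0.76 beside -0.00 over all genes. Of the drop in mean log2(CPM + 1) from MPP to CFU-E, 5.18% came before BFU-E for Meis1, 15% for Hoxb3, 55.4% for Hoxa7, 65.9% for Hoxa10, 70.0% for Hoxb4 and 82.5% for Hoxa9. Pbx3 was no lower in BFU-E than in MPP on that scale, and Hoxa5 was lower in BFU-E than in CFU-E, so neither has such a share between 0 and 100%. A contrast of the second step against the first, chosen after these values were seen, called Meis1 (difference in log2 fold change -1.90, SE 0.21, adjusted p = 2.42e-06, and -2.06 to -1.81 without any 1 library), where 7.77% of genes were called. Pbx3 (-1.12, SE 0.56, adjusted p = 0.282), Hoxa9 (0.93, SE 0.49, adjusted p = 0.325), Hoxa7 (0.26, adjusted p = 0.898), Hoxa10 (0.64, adjusted p = 0.823) and Hoxb4 (0.77, adjusted p = 0.741) did not pass. Among the 6, the steps were thus called different for Meis1 alone.

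**Figure D2:**
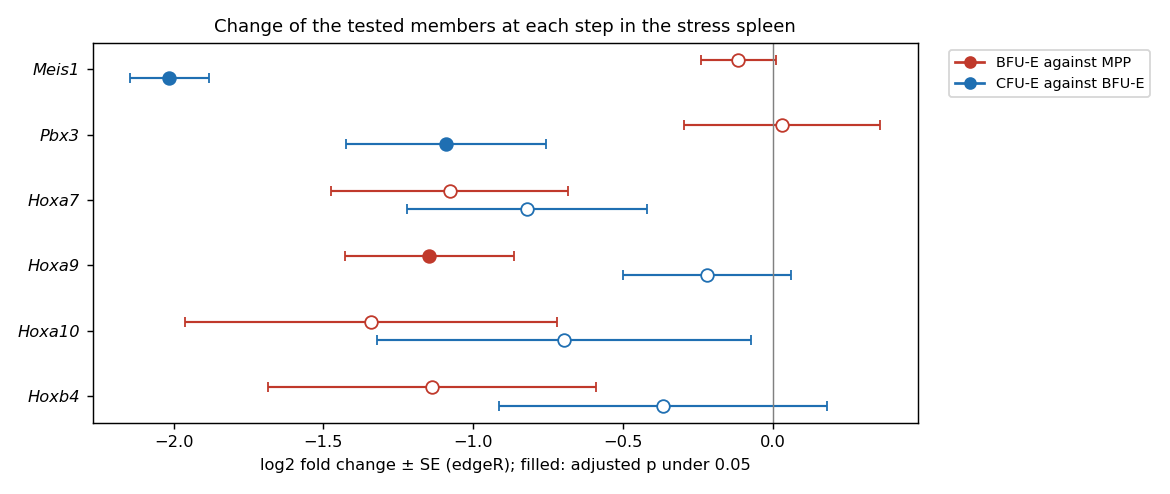
Log2 fold change with its SE (horizontal axis, edgeR) for the 6 tested genes at the steps from MPP to BFU-E (red) and BFU-E to CFU-E (blue); filled points have an adjusted p under 0.05. Meis1 sits at -0.11 and then -2.01, whereas Hoxa9 sits at -1.15 and then -0.22.

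The transcripts that tracked each gene most closely over the 9 spleen libraries were named by Pearson's r of log2 CPM over 10165 genes; libraries of a population share their stage, so these values describe the pattern only. Meis1 was followed by Fam65c, Bin2 and P2ry14 (r = 0.992 each), of which P2ry14 encodes a purinergic receptor of early progenitors. Pbx3 was most like Txndc16 (0.979), Tgm1 (0.971) and Atp6v0d1 (0.968). Hoxa7 was most like Rnf122 (0.992) and Nr4a1 (0.972), Hoxa9 like Snord15b (0.966), Znrf1 (0.960) and Snx6 (0.946), Hoxa10 like Abca2 (0.959), Oxr1 (0.956) and Ube2e2 (0.956), and Hoxb4 like Vldlr (0.953), Tulp3 (0.953) and Heg1 (0.949). Among the 8 themselves the closest pairs were Hoxa7 with Hoxa9 (r = 0.922) and Meis1 with Pbx3 (r = 0.825), whereas Meis1 and Hoxa5 gave -0.02.

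HOX transcripts came almost only from the A and B clusters, and in the A cluster mostly from the genes described above. Summed over the 11 genes of the A cluster, those genes included, the MPP libraries held 78.7, 105 and 97.1 CPM, BFU-E 47.4, 50.5 and 42.0, and CFU-E 21.5, 42.2 and 38.6. The 10 B cluster genes summed to 54.6, 41.1 and 35.7 CPM in MPP, 12.3, 17.8 and 22.9 in BFU-E, and 10.9, 4.91 and 8.74 in CFU-E. Both sums separated MPP from BFU-E without overlap, and the B sum separated BFU-E from CFU-E too, whereas the A sums of BFU-E and CFU-E touched. Without Hoxa5, Hoxa7, Hoxa9 and Hoxa10, the other 7 A cluster genes summed to 3.74 to 6.39 CPM in MPP, 4.98 to 8.30 in BFU-E and 2.46 to 5.39 in CFU-E, all overlapping. Without Hoxb3 and Hoxb4, the other 8 B cluster genes summed to 17.8 to 27.5 CPM in MPP, 3.52 to 9.21 in BFU-E and 0.203 to 2.56 in CFU-E, with no overlap. In the C cluster the most abundant gene had a mean of 1.44 counts, 1 of 9 D cluster genes had any count, and 16 of the 33 other HOX genes were at 0 in all 9 libraries. Hoxb2, an anterior B cluster gene and the other HOX gene above the filter, was at 9.78 ± 1.32 CPM in MPP, 5.23 ± 2.37 in BFU-E and 1.17 ± 1.23 in CFU-E. It fell from BFU-E to CFU-E (log2 fold change -2.12, adjusted p = 0.0445), while its value at the first step was -0.90 (adjusted p = 0.587). Hoxb5 (4.39 ± 2.03 CPM), Hoxb6 (4.58 ± 3.25) and Hoxb8 (3.66 ± 2.69) were present in MPP and at 0.859 ± 0.301, 0.0262 ± 0.0454 and 0.131 ± 0.227 in BFU-E. They had no count in any CFU-E library, where 3 counts correspond to 0.232 to 0.305 CPM, and were too low to be tested. None of the 12 non-coding RNAs of the HOX clusters on the list reached the count filter, and 8 of them were in the table.

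Of 11 TALE genes (Meis1 and Pbx3 included), 8 were tested. From MPP to BFU-E 0 were called by edgeR or DESeq2, where edgeR called 4.13% of all genes. There, 1 had an unadjusted p under 0.05, against 15.8% of all genes. From BFU-E to CFU-E 3 fell and 1 rose, where 21.1% of all genes were called and 11.9% were called lower. Tgif1, a TALE repressor, rose from 14.9 ± 1.17 to 50.2 ± 2.15 CPM (log2 fold change 1.75, adjusted p = 4.42e-05), and over both steps Pbx4 also rose (1.37, adjusted p = 0.00867). The median log2 fold change of the 8 was 0.11 at the first step and -0.41 at the second.

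Chromatin regulators of HOX loci were set beside all genes, of which edgeR called 4.13% at the first step and 21.1% at the second. Of the MLL, menin and DOT1L genes, which keep HOX genes active, 9 of 12 were tested. Of the 9, 1 was called at the first step and 2 at the second, with medians of -0.09 and 0.15. Mllt3, which recruits elongation factors and DOT1L, fell from 86.8 ± 9.89 CPM in MPP to 38.0 ± 1.56 in BFU-E (log2 fold change -1.19, adjusted p = 9.14e-05) and rose to 85.5 ± 8.38 in CFU-E (1.17, adjusted p = 1.68e-05). At the second step Aff4, a super elongation complex scaffold, fell by 0.44 (adjusted p = 0.0103). All 13 Polycomb genes, which silence HOX genes, were tested: 0 were called at the first step by edgeR or DESeq2, and 1 had an unadjusted p under 0.05. Their medians were -0.12 and 0.04 at the steps. At the second, 2 of the 13 were called. Jarid2, an accessory subunit of PRC2, fell from 312 ± 7.00 to 114 ± 23.6 CPM (log2 fold change -1.46, adjusted p = 2.36e-08), and Eed, a core subunit, rose by 0.56 (adjusted p = 0.0271).

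Known target genes of HOXA9 and MEIS1 went both ways. Of 19, 16 were tested, where edgeR called 4.13% of all genes at the first step and 21.1% at the second. At the second step, 11.9% of all genes were called lower and 9.17% higher. From MPP to BFU-E 3 rose and 3 fell, with a median of -0.01: the pseudokinase gene Trib2 (log2 fold change 3.02, adjusted p = 2.63e-04), the platelet chemokine gene Pf4 (1.48, adjusted p = 2.88e-05) and Cdk6 (0.43, adjusted p = 0.000443) rose, and Camk2d (-2.29, adjusted p = 0.000493), Cd34 (-1.53, adjusted p = 0.000469) and the ETS factor gene Erg (-0.68, adjusted p = 0.0120) fell. From BFU-E to CFU-E 2 rose and 9 fell, with a median of -0.55 beside -0.00 over all genes. The largest falls were Pf4, from 272 ± 39.4 to 0.359 ± 0.482 CPM (log2 fold change -9.68, adjusted p = 6.54e-15), the cytokine receptor gene Flt3 (-3.21, adjusted p = 0.0310) and the survival gene Bcl2 (-1.54, adjusted p = 2.29e-06). The targets that rose were Trib2, from 22.3 ± 8.48 to 152 ± 18.0 CPM (2.78, adjusted p = 1.11e-05), and the progenitor transcription factor gene Myb, from 740 ± 66.6 to 1937 ± 156 CPM (1.39, adjusted p = 4.11e-11). Pf4 is itself a megakaryocyte gene, and all 6 megakaryocyte markers fell at the second step. Flt3 and Cd34 are also among the 9 stem and MPP markers. Of those 9, edgeR called 6 lower at the first step, and 5 lower and 1 higher at the second.

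Between BFU-E of the stress spleen and of steady-state BM, 0 of the 8 genes were called by edgeR, where 12 of 10702 genes (0.112%) passed, and 1053 (9.84%) had an unadjusted p under 0.05; DESeq2 called 685 genes and 0 of the 8. The standard errors ran from 0.17 (Meis1) to 1.97 (Hoxa5) on the log2 scale, so a gene without a call may still differ between the populations. Where the error was wide, the difference may be large. The approximate 95% interval was -6.23 to 1.49 for Hoxa5, but -0.39 to 0.27 for Meis1. Both intervals used a normal quantile on the SE, which makes them too narrow for so few libraries. The libraries overlapped for 8 of 8 genes, against 21.9% of all genes without overlap. None of the 8 had an unadjusted p under 0.05 (0 of 8). The median log2 fold change of the 8 (stress minus BM) was -0.24, beside 0.01 over all genes. Of the related lists, edgeR called 0 of 8 TALE, 0 of 9 MLL, menin and DOT1L, 0 of 13 Polycomb and 0 of 17 target genes in this comparison; 0, 1, 1 and 7 had an unadjusted p under 0.05, and DESeq2 called 0, 1, 0 and 6. Hoxb2 had no count in the 3 BM libraries (where 3 counts correspond to 0.33 to 0.43 CPM). In stress BFU-E it had 5.32 ± 2.42 CPM (edgeR adjusted p = 0.365). Of the 7 HOX genes tested, Hoxb2 was the 1 that DESeq2 called. With no BM count, Hoxb2 passed the authors' filter of this table on mean counts through its stress libraries alone. Its DESeq2 call may therefore not be independent of that filter.

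Meis1, the megakaryocyte and stem cell cofactor, and its partner Hoxa9 varied least between BM libraries relative to their means. Meis1 measured 321, 403 and 290 CPM in BM and 302, 324 and 344 in stress BFU-E (log2 fold change -0.06, SE 0.17, adjusted p = 0.938). Hoxa9 measured 21.5, 17.4 and 18.7 CPM in BM and 17.7, 25.5 and 18.4 in stress BFU-E (0.10, SE 0.57, adjusted p = 0.974). In both genes the ranges of the populations overlapped. Pbx3 measured 45.5, 17.9 and 13.2 CPM in BM and 34.2, 21.9 and 23.4 in stress BFU-E (0.05, SE 0.62, adjusted p = 0.988), with the highest and the lowest value both in BM.

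For the other HOX genes, the SD between BM libraries was larger than the difference between the population means. Hoxa7 measured 2.39, 12.3 and 41.7 CPM in BM and 10.5, 17.5 and 12.9 in stress BFU-E (log2 fold change -0.46, SE 1.01, adjusted p = 0.927). Hoxa10 measured 20.2, 6.51 and 8.40 CPM in BM and 7.12, 3.01 and 4.24 in stress BFU-E (-1.29, SE 1.07, adjusted p = 0.769). Hoxb4 measured 18.3, 4.01 and 0.579 CPM in BM and 5.46, 6.57 and 8.33 in stress BFU-E (-0.17, SE 1.35, adjusted p = 0.983). The stress libraries lay inside the BM range for Hoxa7 and Hoxb4, whereas only 1 of the 3 stress libraries of Hoxa10 did. Hoxa5 had 171, 77 and 0 counts in the BM libraries and at most 4.24 CPM in stress BFU-E (-2.37, SE 1.97, adjusted p = 0.769). Hoxb3 had 0, 49 and 82 counts in BM and 3.49, 5.35 and 5.61 CPM in stress BFU-E (-0.32, SE 1.74, adjusted p = 0.972). Both genes thus had libraries with many counts and a library with none within BM, a spread beyond counting error. In the RPKM table of the BFU-E populations, a BM library correlated across genes at 0.544 to 0.690 with the counts of another. For different stress BFU-E libraries these values were 0.925 to 0.939. A wide spread between BM libraries was thus not limited to these genes. Beside this, 7 erythroid markers in the BFU-E count table summed to 160 to 274 CPM in BM and 299 to 345 in stress BFU-E. In the same order, 5 monocyte and macrophage markers summed to 402 to 975 and 79.2 to 124. For 7 stem and MPP markers the sums were 322 to 445 and 170 to 202. For 5 mast cell and basophil markers they were 7.39 to 145 and 11.2 to 33.6. The 6 megakaryocyte markers summed to 1908 to 2938 and 1763 to 2047. The 6 granulocyte markers summed to 586 to 1333 and 647 to 764. The part of all these markers was not tested.

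**Figure D3:**
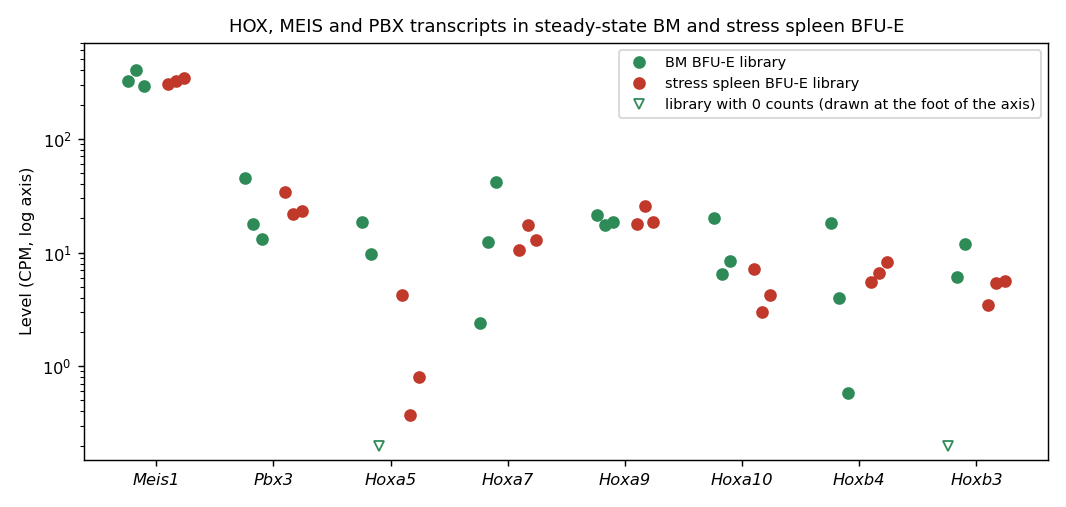
Level of each gene in CPM (log axis) in the 3 BM (green) and 3 stress spleen (red) BFU-E libraries; open triangles at the foot of the axis are libraries with 0 counts. Meis1 and Hoxa9 libraries of both populations lie close together, whereas the BM libraries of Hoxa7 run from 2.39 to 41.7 CPM.

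BM BFU-E could be set against stress MPP and CFU-E within the RPKM table of all 12 libraries or across tables. The answer depended on which BM values were used. In the RPKM table of all 12 libraries, the BM columns correlated across genes at only 0.403 to 0.598 with the BM count libraries, whereas those of the RPKM table of the BFU-E populations did so at 0.969 to 0.979 for the same library. With the former, limma on log2(RPKM + 1) called 4 of 8 genes against MPP and 4 of 8 against CFU-E, where 66.8% of all genes were called in each. In that fit the median log2 fold change over all genes was 0.81 against MPP and 0.87 against CFU-E. Called higher in BM BFU-E were 50.3% and 51.9% of all genes. Meis1 (log2 fold change 0.67) and Hoxa10 (2.35) were higher in BM BFU-E than in MPP, and Pbx3 (-1.37) and Hoxb4 (-1.81) lower. The Meis1 value thus lay below the median of all genes. Against CFU-E, Meis1 (2.76), Hoxa7 (1.24) and Hoxa10 (3.49) were higher and Hoxb4 (-0.80) lower.

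The call of Hoxa10 against MPP rested on those columns. BM libraries read 24.7, 16.1 and 14.6 RPKM there and 5.01, 1.57 and 2.09 in the table of the BFU-E populations, beside 2.76, 3.09 and 2.34 in MPP. With the latter table, 1 gene was called against MPP (Hoxa9, -1.01, adjusted p = 0.0438, with 6.1% of all genes called) and 1 against CFU-E (Meis1, 2.00, adjusted p = 6.28e-06, with 18% called). An edgeR fit of the counts of all 12 libraries, added after the mismatch was seen, called 0 of 8 against MPP (limma, as above, called 4 or 1), where 3.82% of genes were called and Hoxa9 had -1.24 (SE 0.39, adjusted p = 0.10). Against CFU-E it called Meis1 alone (2.06, SE 0.17, adjusted p = 3.99e-06), where 16.6% of genes were called. Hoxa10 and Hoxa7 kept their direction against CFU-E without a call: Hoxa10 had 1.10 (adjusted p = 0.0650) with the BFU-E table and 1.963 (SE 0.86, adjusted p = 0.144) in the counts, and Hoxa7 0.59 (adjusted p = 0.515) and 1.27 (SE 0.80, adjusted p = 0.315). The higher level of Meis1 in BM BFU-E than in stress CFU-E was thus called with every source of BM values, and ran from 1.92 to 2.15 in the count fit without any 1 BM library.

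Accessible regions at these genes were more numerous in the stress spleen list, as they were for most genes. The authors deposited 1 merged peak list per population, so no test between libraries was possible. The stress list was 1.75 times as long as the BM list, and 65.6% of 18139 genes with a peak had more of them in it. All 16 BM regions of the 8 genes overlapped a stress region by at least 1 base, against 95.5% of all BM regions. Of the 31 stress regions, 17 (54.8%) overlapped a BM region, against 55% of all stress regions. The share of regions in common was thus near that of the whole lists.

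Meis1 held most of them. It had 10 BM and 20 stress regions, where the median gene had 1 and 2. Genes with as many or more, Meis1 included, were 0.832% in the BM list and 0.48% in the stress list. These counts were not adjusted for the length of a gene and its flanks. All 10 BM regions recurred in the stress list. They were the region at the start of the gene, regions 1.56 and 8.11 kb upstream, 5 intronic regions at 10.7, 48.8, 55.4, 69.6 and 94 kb downstream of the start, and intergenic regions at 141 and 265 kb downstream. The intron 8 region at 94 kb, whose central bases are the first sequence above and contain AGATAA, had the highest possible score, 1000, in each list. Scores are the authors' and were compared only within a list; 30.4% of BM and 49.2% of stress regions had 1000.

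The other 10 stress regions of Meis1 had no BM counterpart. They lay at 22.5, 45, 80.9, 120, 121, 122 and 133 kb in introns 6 to 9 and at 147, 197 and 264 kb beyond the gene. Their scores ran from 431 to 964, while those of the 10 shared regions in the same list ran from 651 to 1000. The highest, 964, belonged to the intron 8 region at 80.9 kb that is printed as the third Meis1 sequence. The intron 9 regions at 120 to 122 kb formed a group of 3 with scores of 431, 574 and 684. The region at 133 kb overlaps annotated exons (Meis1 and Gm37818), and the others in introns 6 to 9 overlap none.

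**Figure D4:**
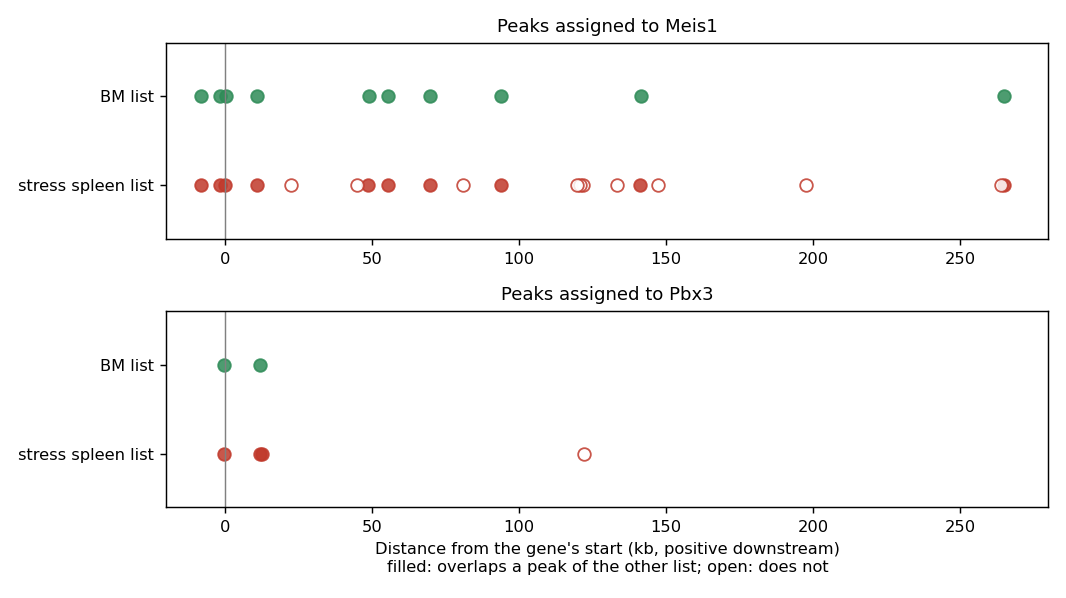
Regions assigned to Meis1 and Pbx3 by distance from the gene's start (kb, horizontal axis) in the BM list (green) and the stress spleen list (red); filled points overlap a region of the other list and open points do not. All 10 BM regions of Meis1 are filled, and 10 of its 20 stress regions are open.

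Pbx3 had 2 BM regions, at its promoter and 12 kb into intron 2. Both recurred in the stress list, where the intron region was split into intervals at 11.8 and 12.4 kb, and a further region 122 kb downstream in intron 2 (score 766) was in the stress list alone. In the A cluster, Hoxa10 had 2 regions in both lists, each in an exon 1. Hoxa7 had a region about 3.3 kb upstream in both lists (scores 660 in BM and 1000 in stress) and a weak one in its 5′ UTR in the stress list (score 438). The exon 1 regions of Hoxa5 (score 1000) and Hoxa9 (score 914, 1.17 kb from its start) were in the stress list alone. In the B cluster, Hoxb4 had 1 exon 1 region in both lists and Hoxb3 none. Counted over whole clusters, the A span (chr6:52155590-52260880, 11 HOX genes) held 8 BM and 12 stress regions, and the B span (chr11:96194316-96368256, 10 HOX genes) 5 and 12, with all BM regions shared.

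RefSeq promoter sequences (250 bases before to 50 after the start, matching the mm10 genome) were found for 6 of the 8 genes, in 7 entries. BM and stress regions both overlapped the promoters of Meis1, Hoxb4 and 1 of 2 promoters of Hoxa10. Only stress regions overlapped those of Hoxa5 and the other Hoxa10 entry, and neither list had a region overlapping those of Hoxa7 and Hoxa9. At that other Hoxa10 entry, which starts at 52240805, the nearby region was in both lists and differed in its edge. It ended at 52240710 in the BM list and at 52240935 in the stress list. The counts of windows with each motif were small. TGATTNAT was in 0 of the 16 BM and 1 of the 31 stress windows of these genes (intron 9 of Meis1, 133 kb), against 1.55% and 1.76% of all windows of 200 bases and 3.22% of promoters. TGACAG was in 0 and 5, against 15% and 15.6%, with 19.2% of promoters. AGATAA was in 2 and 3, against 9.43% and 11.5%, with 11.2% of promoters, and all of these lay at Meis1. TGTGGT was in 0 and 3, against 20.3% and 22.8%, with 16.8% of promoters. Windows were centred on each list's own region, so a shared region could hold a match in 1 list only.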

How the data were processed

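RNA was measured in 12 libraries (3 per population) and open chromatin in 3 ATAC-seq libraries per BFU-E population. The submitters' processing notes name HOMER 4.8, the aligner STAR 2.6.0b-1, the aligner Bowtie2 2.3.4.2, DESeq2 and the mouse build mm10 (GRCm38), and give no order of steps. Per the file headers, the authors counted reads over exons with HOMER and kept 1 transcript per gene; the strand setting is not given in the sources used here. The deposited count tables hold raw counts: 1 covers the 9 spleen libraries, and the other covers both BFU-E populations, filtered by the authors on a mean of 50. The deposited RPKM tables hold reads scaled by the authors to gene length and library size, for all 12 libraries and for the BFU-E populations; in the latter, 1 BM column carries no complete name and was used as a replicate without a number. The deposited peak lists give the authors' score per peak, 415 to 1000, in 1 merged list per population; the caller and its threshold are not given in the sources used here. Repeated entries for an interval were merged, leaving 35142 of 76147 (BM) and 61661 of 117426 (stress spleen).

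Counts were fitted in R 4.3.3 with edgeR 4.0.16 (TMM, quasi-likelihood F test), the 9 spleen libraries together over 10166 genes with a mean of at least 50 counts, and the BFU-E libraries over 10702 genes. For BM BFU-E against MPP and against CFU-E, limma 3.58.1 was run on log2(RPKM + 1) over the 11628 genes that reached 1 RPKM in 3 or more libraries; fold changes on that scale understate those of low genes. P-values were adjusted over all genes by Benjamini-Hochberg, with a threshold of 0.05. The SE is the log2 fold change divided by the square root of F, an approximation. Peak lists were compared with bedtools 2.31.1 (at least 1 base shared), and sequences were read with pysam 0.24.0. Exon overlaps come from GENCODE vM21, and a floor of 3 counts per library was used for genes at 0. DESeq2 1.42.0 and other settings were tried; for the BFU-E table DESeq2's dispersion trend was set to a local regression after the default parametric trend was seen to converge in some runs and not in others, which moved its count of called genes by over 1.5 times. The fits were tested on simulated data, in which all genes of a count table had its common spread. At that of the BFU-E table, edgeR did not recover the changed genes and DESeq2 recovered few. Few or no calls there thus say little about genes of such spread. Genes with less spread, such as Meis1, were not simulated. All 8 genes were named throughout. Of each pathway list, up to 3 genes per direction and step with an adjusted p under 0.05 were named by size of change. Some genes that the rules would name are not reported here. The genes and lists were chosen with earlier results of these data known. The 12-library count fit and the contrast between steps were added after the data were seen.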

Additional observations from a re-analysis of the deposited data

How the results depend on the processing

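The counts of tested genes that passed, 1, 2 and 6 for BFU-E against MPP, CFU-E against BFU-E and CFU-E against MPP and 0 between the BFU-E populations, did not change with DESeq2, its size factors or filterByExpr. Leaving out 1 library gave 0 to 1, 1 to 2, 4 to 5 and 0, and, for BM BFU-E against MPP and CFU-E in limma, 3 to 4 and 3 to 5. Against 4 each there, the BFU-E table gave 1 and 1, and counts of 12 libraries 0 and 1. Regions numbered 5 (BM) and 19 (stress) at a score of at least 830, and 44 and 77 with all entries kept.

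Reversals were all of uncalled values except where BM columns were replaced. With the BFU-E table, BM against MPP gave -0.085 for Meis1 and -0.035 for Hoxa10, and BM against CFU-E 0.69 for Pbx3 and 0.079 for Hoxb4; counts of 12 libraries gave -0.051, -0.061, 1.02 and 0.52. Without 1 library, stress against BM BFU-E ranged from -0.16 to 0.088 (Meis1), -0.26 to 0.78 (Pbx3), -0.98 to 0.90 (Hoxa7), -0.078 to 0.20 (Hoxa9), -0.72 to 1.57 (Hoxb4) and -0.89 to 0.66 (Hoxb3); BFU-E against MPP from -0.20 to 0.22 (Pbx3); CFU-E against BFU-E from -0.42 to 0.012 (Hoxa9) and -0.74 to 0.019 (Hoxb4); BM against MPP from -0.30 to 0.79 (Hoxa5); and BM against CFU-E from -1.19 to 0.044 (Pbx3) and -0.14 to 0.95 (Hoxa5). The cause was not tested.

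Over all genes, BFU-E against MPP called 420, but 668 without the filter and 225 to 336 without 1 library. Stress against BM BFU-E called 12, but 685 with DESeq2, 3 with the replicate block and 0 to 27 without 1 library. BM against MPP called 7766, but 689 with the BFU-E table and 398 with counts; BM against CFU-E 7773, but 2034 and 1728.

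The labels do not say whether replicate numbers pair the samples. Deviations from the group means correlated at 0.0151 to 0.116 in the 9 same-numbered spleen pairs and at -0.0897 to 0.0296 in the 18 others. A weak pairing in the spleen was thus possible, and the main fits left it out. The 3 same-numbered BFU-E pairs gave -0.0361 to -0.0295, and the 6 others -0.0118 to 0.0439. A replicate block called 476, 2221 and 2972 genes in the spleen comparisons, kept the counts 1, 2, 6 and 0, and gave 0.33 (Hoxa7), 0.83 (Hoxb4) and 0.86 (Hoxb3) for stress against BM BFU-E; Hoxb4 in BM against CFU-E lost its call (adjusted p = 0.0636). Hoxa5 and Hoxb3 had too few counts in the spleen table to be tested there.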
